A study of Rattus norvegicus with 23 samples.

Results

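Rat kidney cells were exposed to acidic medium, and the mRNA of 10 amino acid transporters of the plasma membrane was followed: Slc3a2, Slc7a5, Slc7a6, Slc7a11, Slc7a1, Slc1a4, Slc1a5, Slc38a1, Slc38a2 and Slc6a9. They were taken by gene symbol, and all 10 were found among the 30452 genes of the deposited table and passed the filter on low counts. The samples came from NRK-52E cells (NRKE in the labels), given as epithelial, and NRK-49F cells (NRKF), given as fibroblasts. Both are established lines that were grown in monoculture, starved of serum for 24 h and then kept for 48 h at pH 7.4, the control, or at pH 6.0, set with HCl. NRK-52E cells gave n = 6 samples at each pH, and NRK-49F cells gave n = 6 at pH 7.4 and n = 5 at pH 6.0. The labels place NRK-52E samples in sample groups 1 and 3 and NRK-49F samples in sample groups 4 and 6, without saying what a sample group is. No sample group held both lines, so differences between the lines cannot be told apart from differences between sample groups. The labels do not say that sample groups 1 and 4, or 3 and 6, belong together, as they are paired below. Each sample group held 3 samples per pH, apart from sample group 4 at pH 6.0 with 2. Each cell type was represented by 1 line, and the labels do not say whether samples came from separate cultures, so the p-values measure the spread between these samples, which may be technical.

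Total counts ranged from 16412564 to 34250535 per sample, and levels are given in FPM, counts per 1000000 of the scaled library. A count of 3 was worth 0.0839 to 0.203 FPM depending on the library, which describes counting error alone. At pH 7.4, 9 of the 10 fibroblast markers tested had the higher mean in NRK-49F cells, such as Pdgfra at 306 ± 48.5 FPM (SD, n = 6) against 1.83 ± 1.54 FPM (SD, n = 6), while Col3a1 was at 1212 FPM in NRK-49F and 6149 FPM in NRK-52E cells. The defining epithelial genes Cdh1 and Epcam were at or near 0 in both lines. Of the 3 epithelial markers with enough counts, Tjp3 was higher in NRK-52E cells (15 against 1.76 FPM), whereas Krt8 (499 against 839 FPM) and Cldn1 (0 against 0.530 FPM) were lower in them, so the markers did not show NRK-52E cells as the more epithelial line. The lines are therefore called by their names below. Marker levels moved with pH. In NRK-52E cells the 10 fibroblast markers tested were all lower at pH 6.0, and the summed level of the list of 12 was 4990 to 8164 FPM at pH 7.4 against 1846 to 3122 FPM at pH 6.0, most of it Col3a1. The summed epithelial markers of this line lay at 462 to 665 FPM in the controls against 216 to 275 FPM, nearly all of it Krt8. The endothelial and leukocyte markers of the line summed to 11.7 to 22.8 against 4.54 to 8.82 FPM. This fall was that of Tek (means 14.3 and 1.76 FPM). Of the 3 tested, 2 were called higher at pH 6.0: Cd68 (means 1.90 and 4.15 FPM) and Pecam1 (0.0561 and 0.581 FPM). In NRK-49F cells 2 of the 10 fibroblast markers tested were lower and the sum was 10976 to 13950 FPM in the controls against 7593 to 10180 FPM. Their endothelial and leukocyte markers summed to 22.8 to 34.1 FPM in the controls against 218 to 252 FPM, nearly all of it Cd68 (means 29.9 and 229 FPM), with Ptprc, Kdr and Cdh5 at or near 0. The part of these shifts in the transporter results was not tested. NRK-52E replicate A021 (pH 7.4) held Pdgfra at 1.54% of the NRK-49F level, the highest share among the NRK-52E samples. In bulk RNA, fewer cells of a kind and less RNA per cell cannot be told apart.

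Amino acids cross the plasma membrane through families of carriers that differ in substrate and in driving force. Several light chains of the SLC7 family, such as those of Slc7a5, Slc7a6 and Slc7a11, are exchangers that need the heavy chain CD98, encoded by Slc3a2, to reach the cell surface, while carriers of the SLC1, SLC6 and SLC38 families work alone and couple transport to sodium. When amino acids are scarce or the endoplasmic reticulum is stressed, phosphorylation of the initiation factor eIF2α raises the translation of the transcription factor ATF4, which acts at C/EBP-ATF response elements of genes for amino acid synthesis and uptake. NFE2L2 acts at antioxidant response elements in response to oxidative stress. Many of the 10 transporters are known as targets of this stress response, and kidney tubule cells are known for their heavy traffic in amino acids.

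Since the members are often described as targets of ATF4 or NFE2L2, the bases before their annotated starts were searched for the core of both elements. RefSeq promoters of build GRCr8 matched 9 of the 10 transporters by symbol, with 2 entries for Slc3a2. The 250 bases before the start were searched on both strands for TGATGNAA, the C/EBP-ATF core, and for TGACNNNGC, the antioxidant core, where N is any base. The C/EBP-ATF core was found before 3 transporters (Slc7a1, Slc1a4 and Slc38a1) and lay in 3.4% of all 33469 promoters. The antioxidant core was found before 3 transporters (Slc3a2, Slc7a1 and Slc38a2) and lay in 10.1% of all promoters. The windows below are those with a match to the C/EBP-ATF core, followed by the Slc3a2 entry with a match to the antioxidant core. Each is written 5′ to 3′ on the strand of the gene with the matched letters in capitals.
Slc1a4, chr14:98761563-98761812, minus strand: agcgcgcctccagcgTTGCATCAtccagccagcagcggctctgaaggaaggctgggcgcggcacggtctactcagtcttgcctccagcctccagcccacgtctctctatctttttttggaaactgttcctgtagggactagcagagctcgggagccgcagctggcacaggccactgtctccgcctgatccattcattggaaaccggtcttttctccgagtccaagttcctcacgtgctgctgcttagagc
Slc7a1, chr12:11664238-11664487, plus strand: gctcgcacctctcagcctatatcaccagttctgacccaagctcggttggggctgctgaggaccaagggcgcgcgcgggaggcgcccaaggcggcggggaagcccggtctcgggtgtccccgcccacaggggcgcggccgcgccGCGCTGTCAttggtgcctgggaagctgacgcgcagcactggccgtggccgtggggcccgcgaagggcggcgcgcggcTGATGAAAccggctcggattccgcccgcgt
Slc38a1, chr7:129681402-129681651, minus strand: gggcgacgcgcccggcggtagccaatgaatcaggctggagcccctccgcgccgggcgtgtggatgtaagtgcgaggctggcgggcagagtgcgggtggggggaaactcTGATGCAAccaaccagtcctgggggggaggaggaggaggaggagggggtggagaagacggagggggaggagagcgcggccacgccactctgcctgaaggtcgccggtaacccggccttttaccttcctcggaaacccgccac
Slc3a2, chr1:215039671-215039920, minus strand: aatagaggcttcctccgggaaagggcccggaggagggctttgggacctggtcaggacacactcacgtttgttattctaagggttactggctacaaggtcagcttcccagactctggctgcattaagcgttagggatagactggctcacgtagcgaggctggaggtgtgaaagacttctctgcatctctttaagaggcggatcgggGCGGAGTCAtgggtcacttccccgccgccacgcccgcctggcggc
The matched letters began 235 bases before the start of Slc1a4 (on the opposite strand), 30 bases before that of Slc7a1 and 142 bases before that of Slc38a1. In the Slc7a1 window the antioxidant core began 107 bases before the start, and in the Slc3a2 window it began 45 bases before it, both on the opposite strand. For Slc38a2, whose window is not shown, the antioxidant core began 50 bases before the start on the strand of the gene. A match is a description of the letters, and no match says only that they are not in this window. As the values below show, the 3 transporters with a C/EBP-ATF match moved in 3 ways: Slc1a4 rose in both lines, Slc7a1 rose in NRK-52E cells and fell in NRK-49F cells, and Slc38a1 was not called in either. So did the 3 with an antioxidant match: Slc3a2 rose in both lines, Slc7a1 moved as stated, and Slc38a2 was not called in either.

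At pH 6.0, 5 of the 10 transporters were higher in NRK-52E cells (Slc3a2, Slc1a4, Slc1a5, Slc6a9 and Slc7a1) and 0 were lower by edgeR's quasi-likelihood test at a Benjamini-Hochberg adjusted p under 0.05 over all genes tested. By the same rule 61.2% of the 14777 genes tested were called in NRK-52E cells, 24.7% higher and 36.6% lower. The median log2 fold change was 0.35 over the 10 transporters and -0.12 over all genes tested. In NRK-49F cells 6 of the 10 were called, 4 higher (Slc3a2, Slc7a11, Slc1a4 and Slc6a9) and 2 lower (Slc7a5 and Slc7a1). There 28.9% of all genes were called, 14.5% higher and 14.4% lower, and the median was 0.03 over the transporters and 0.00088 over all genes. The levels at both pH values did not overlap for 3 transporters in NRK-52E cells, where 38.6% of all genes did not overlap, and for 4 in NRK-49F cells, where 20.6% did not. Slc3a2, Slc1a4 and Slc6a9 were the 3 members called higher in both lines.

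**Figure D1:**
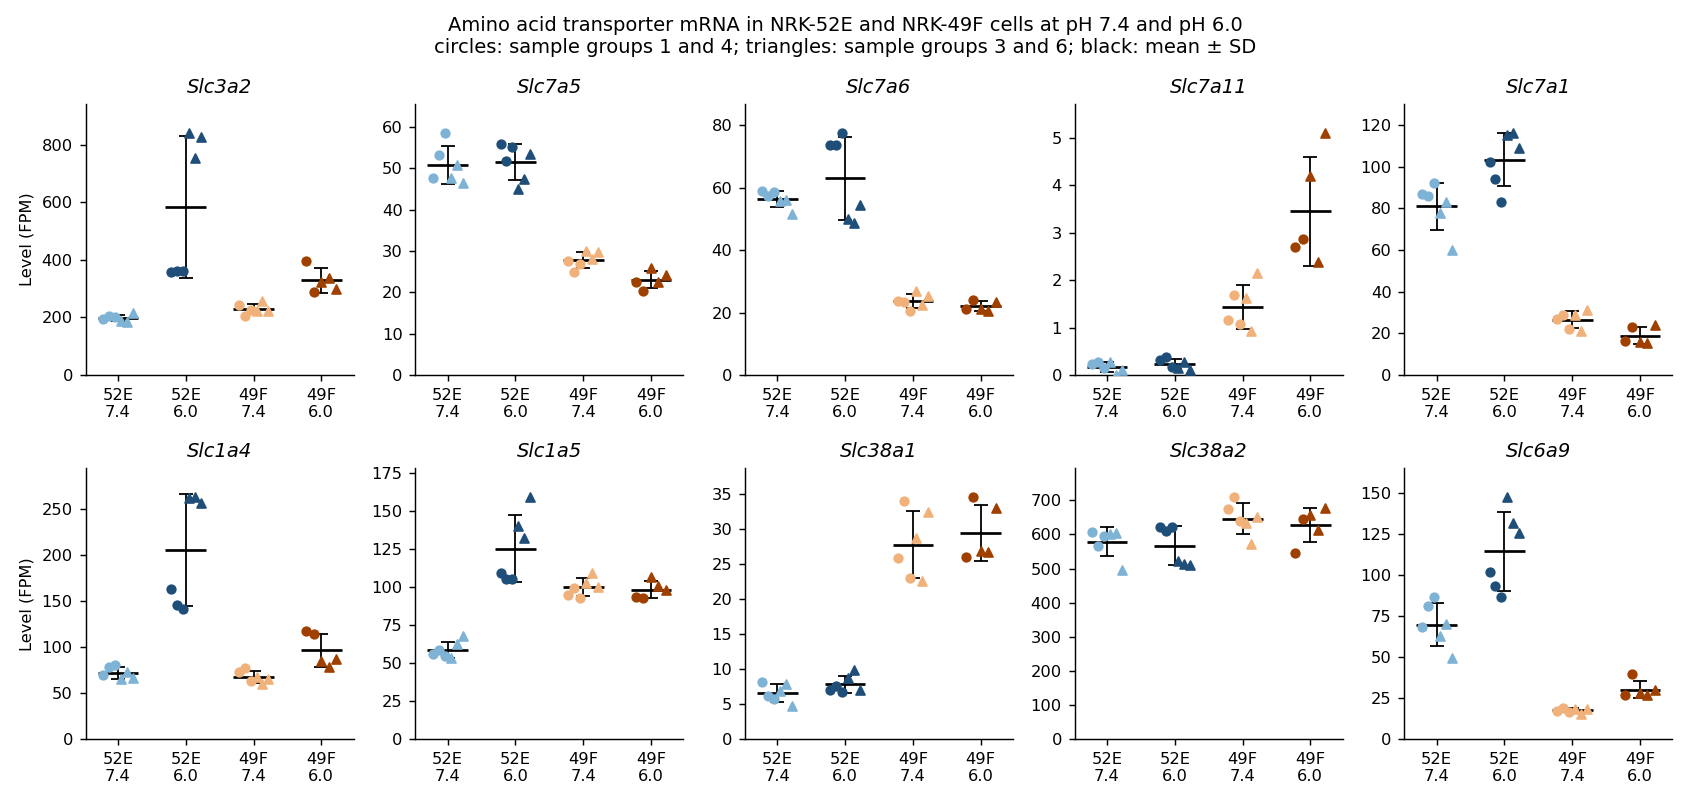
Level of each transporter in FPM (linear axis from 0) in every sample, by cell line (52E or 49F) and pH. Circles are sample groups 1 and 4, triangles are sample groups 3 and 6, and black lines give mean ± SD. In NRK-52E cells at pH 6.0 the Slc3a2 samples split into 358 to 361 FPM in sample group 1 and 754 to 841 FPM in sample group 3.

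Slc3a2 encodes the heavy chain that carries the SLC7 light chains to the surface. In NRK-52E cells it ranged from 184 over a median of 198 to 214 FPM at pH 7.4, and from 358 over 558 to 841 FPM at pH 6.0. Every acidic sample lay above every control sample, and the acidic samples formed 2 sets with a wide gap between them. The rise was 2.95-fold (log2 1.56 ± 0.19 SE, edgeR adjusted p = 1.5e-07). In NRK-49F cells Slc3a2 ranged from 206 over 224 to 257 FPM at pH 7.4, and the 5 samples at pH 6.0 had 396, 287, 323, 338 and 299 FPM. Here too the pH values did not overlap, with a rise of 1.43-fold (log2 0.52 ± 0.19, edgeR adjusted p = 0.045). This call was close to the threshold and was lost in 12 of the 23 fits that left out 1 sample, with log2 fold changes between 0.44 and 0.56 and adjusted p up to 0.12, the highest without NRK-49F replicate A042 (pH 6.0). The rise was larger in NRK-52E cells by 1.04 ± 0.27 on the log2 scale (edgeR adjusted p = 0.0030), but with sample groups 1 and 4 alone the difference was 0.25 and did not pass (edgeR adjusted p = 0.35). From low to high, the levels ran from NRK-52E cells to NRK-49F cells at pH 7.4, which did not differ beyond their spread (edgeR adjusted p = 0.31), then NRK-49F cells and NRK-52E cells at pH 6.0.

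Slc7a5 encodes LAT1, the light chain that exchanges large neutral amino acids such as leucine. It did not follow its heavy chain. In NRK-52E cells it ranged from 46.4 over 49.2 to 58.6 FPM at pH 7.4 and from 45.0 over 52.6 to 55.9 FPM at pH 6.0, and the log2 fold change was 0.02, with a 95% interval from -0.13 to 0.18. In NRK-49F cells the range was 24.9 over 27.8 to 30.0 FPM at pH 7.4, and the samples at pH 6.0 had 22.4, 20.2, 25.9, 22.6 and 24.3 FPM. The ranges overlapped slightly in these cells, and the level fell by 0.27 on the log2 scale (SE 0.084, edgeR adjusted p = 0.017). This call was lost without NRK-49F replicate A043 (pH 6.0, adjusted p = 0.056) and with either pair of sample groups alone (0.091 and 0.075). In the model of all 23 samples by sample group, the fall passed in sample groups 4 and 6 (edgeR adjusted p = 0.041 and 0.044). The difference between the lines was 0.29 ± 0.11 (edgeR adjusted p = 0.043) and was lost in 15 of the 23 fits without 1 sample, where adjusted p ranged from 0.020 to 0.090.

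Slc7a6 encodes y+LAT2, the light chain that exchanges cationic for neutral amino acids. Its mean in NRK-52E cells was 56.4 ± 2.65 FPM in the controls and 63.0 ± 13.4 FPM at pH 6.0 (SD, n = 6 each). The wide spread at pH 6.0 came with the sample groups, since sample group 1 lay at 73.6 to 77.6 FPM and sample group 3 at 48.8 to 54.4 FPM. In NRK-49F cells the means were 23.7 ± 2.24 (SD, n = 6) and 22.1 ± 1.52 FPM (SD, n = 5). Over all samples of a line, the log2 fold change was 0.16 (95% interval -0.05 to 0.37) in NRK-52E cells and -0.10 (-0.33 to 0.12) in NRK-49F cells, and neither passed the test.

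Slc7a11 encodes xCT, the light chain that takes up cystine in exchange for glutamate and so feeds glutathione synthesis. It was a gene of the NRK-49F cells in these data. In NRK-52E cells the samples held 0 to 8 counts at pH 7.4 and 2 to 7 counts at pH 6.0, close to the limit of 3 counts, so a change was not detectable at this depth (log2 0.36, 95% interval -0.55 to 1.26). In NRK-49F cells it ranged from 0.932 over 1.39 to 2.16 FPM at pH 7.4 (16 to 43 counts), and the samples at pH 6.0 had 2.70, 2.87, 4.19, 2.38 and 5.11 FPM (47 to 113 counts). The ranges did not overlap, and the rise was 2.40-fold (log2 1.26 ± 0.30, edgeR adjusted p = 0.0028), the largest of the 10 transporters in this line. With sample groups 3 and 6 alone it was 1.32 and did not pass (edgeR adjusted p = 0.056). In the model of all 23 samples by sample group, the rise passed in sample group 6 (edgeR adjusted p = 0.018) and not in sample group 4 (0.083). The test of the difference between the lines did not pass (log2 -0.91, 95% interval -2.02 to 0.21, edgeR adjusted p = 0.21).

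Slc7a1 encodes CAT1, a carrier of arginine and lysine that needs no heavy chain, and it was the member called in opposite directions in the 2 lines. In NRK-52E cells it ranged from 60 over 84.6 to 92.1 FPM at pH 7.4 and from 83.3 over 106 to 116 FPM at pH 6.0. In NRK-49F cells the range was 20.9 over 28.0 to 31.4 FPM at pH 7.4, and the samples at pH 6.0 had 16.4, 22.9, 16, 15.3 and 24.1 FPM. The pH values overlapped in both lines. The change was a rise of 1.28-fold in NRK-52E cells (log2 0.35 ± 0.13, edgeR adjusted p = 0.021) while NRK-49F cells showed a fall by 0.49 ± 0.14 (log2) (edgeR adjusted p = 0.0095), and the difference of 0.84 ± 0.19 passed the test (edgeR adjusted p = 0.00094). The rise in NRK-52E cells was lost without replicate A035 (pH 7.4), the lowest control sample (log2 0.28, adjusted p = 0.057). With sample groups 1 and 4 alone the log2 values were 0.08 for the rise, -0.41 for the fall and 0.49 for the difference, and none of these 3 passed (edgeR adjusted p = 0.65, 0.10 and 0.13). The fall also did not pass with sample groups 3 and 6 alone (edgeR adjusted p = 0.062). In the model of all 23 samples by sample group, it passed in sample group 6 (edgeR adjusted p = 0.031) and not in sample group 4 (0.16).

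**Figure D2:**
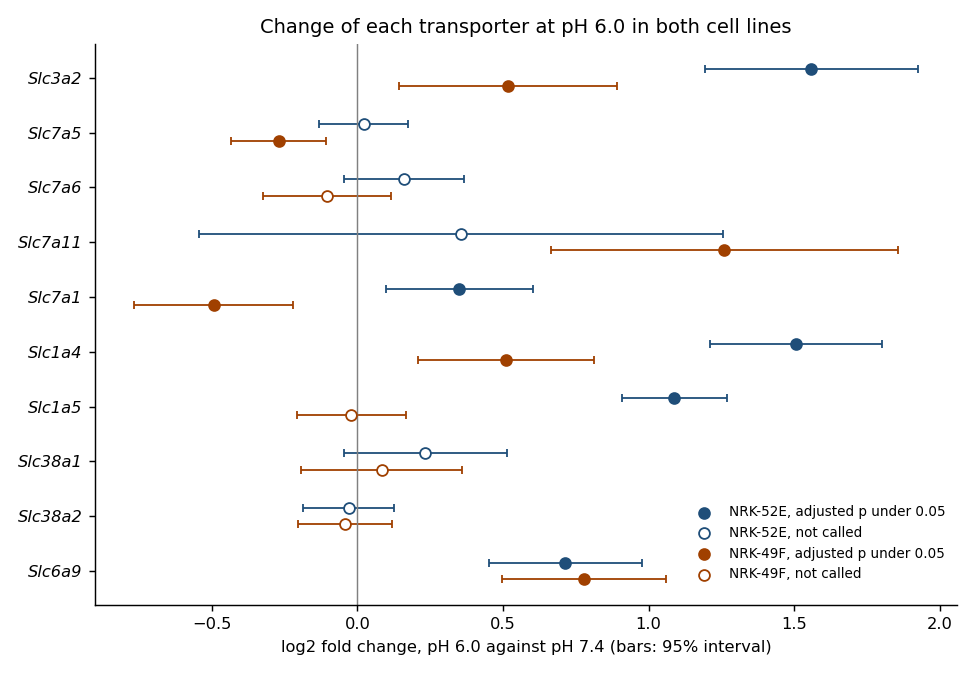
Log2 fold change at pH 6.0 against pH 7.4 for each transporter in NRK-52E (blue) and NRK-49F cells (brown), with 95% intervals. Filled points passed the edgeR test at an adjusted p under 0.05 and open points did not. Slc7a1 lies on opposite sides of 0 in the 2 lines (0.35 and -0.49), and Slc6a9 is at 0.71 and 0.78.

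Slc1a4 and Slc1a5 encode ASCT1 and ASCT2, sodium-dependent exchangers of small neutral amino acids, of which ASCT2 is known for glutamine uptake. In NRK-52E cells Slc1a4 ranged from 65.3 over 71.3 to 80.5 FPM at pH 7.4 and from 141 over 210 to 263 FPM at pH 6.0. All acidic samples were above all controls, and the rise was 2.84-fold (log2 1.51 ± 0.15, edgeR adjusted p = 7.7e-09). In NRK-49F cells Slc1a4 ranged from 59.8 over 66.9 to 77.1 FPM at pH 7.4, and the samples at pH 6.0 had 117, 114, 85.5, 78.8 and 87.3 FPM. The lowest acidic sample was just above the highest control, and the rise was 1.42-fold (log2 0.51 ± 0.15, edgeR adjusted p = 0.015), which did not pass without replicate A042 (pH 6.0, log2 0.43, adjusted p = 0.053). The rise was larger in NRK-52E cells by 1.00 ± 0.21 (edgeR adjusted p = 0.00064), a difference that was 0.28 and did not pass with sample groups 1 and 4 alone (edgeR adjusted p = 0.23).

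Slc1a5 ranged from 53.7 over 57.5 to 67.5 FPM in NRK-52E cells at pH 7.4 and from 105 over 121 to 159 FPM at pH 6.0. The groups were far apart, with a rise of 2.13-fold (log2 1.09 ± 0.092, edgeR adjusted p = 5.5e-10). In NRK-49F cells it ranged from 92.5 over 99.6 to 109 FPM at pH 7.4, and the samples at pH 6.0 had 93.5, 92.7, 106, 101 and 97.7 FPM. The acidic range lay within the control range, and the log2 fold change was -0.02, with a 95% interval from -0.21 to 0.17. The difference between the lines, 1.11 ± 0.13, had the smallest adjusted p of the 10 transporters (edgeR, 5.2e-07), and it turned the order of the lines: Slc1a5 was lower in NRK-52E cells at pH 7.4 and higher in them at pH 6.0.

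Slc38a1 and Slc38a2 encode SNAT1 and SNAT2, sodium-coupled carriers of glutamine, alanine and other neutral amino acids. In NRK-52E cells Slc38a1 had 6.63 ± 1.33 FPM at pH 7.4 and 7.84 ± 1.25 FPM at pH 6.0 (SD, n = 6 each), against 27.8 ± 4.75 (SD, n = 6) and 29.5 ± 4.00 FPM (SD, n = 5) in NRK-49F cells. Slc38a2, known as a gene that amino acid starvation induces, had 579 ± 42.8 and 567 ± 56.5 FPM in NRK-52E cells and 646 ± 45.4 and 627 ± 51 FPM in NRK-49F cells. Neither was called in either line, and the intervals were narrow for Slc38a2, from -0.19 to 0.13 in NRK-52E cells and from -0.21 to 0.12 in NRK-49F cells on the log2 scale. For Slc38a1 they ran from -0.05 to 0.51 and from -0.19 to 0.36.

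Slc6a9 encodes GLYT1, which takes up glycine with sodium and chloride. In NRK-52E cells it ranged from 49.9 over 69.3 to 86.6 FPM at pH 7.4 and from 86.5 over 114 to 148 FPM at pH 6.0, and in NRK-49F cells from 15.7 over 18.0 to 19.1 FPM at pH 7.4, with 26.9, 39.7, 28.0, 27.3 and 29.8 FPM in the samples at pH 6.0. The ranges overlapped at their ends in NRK-52E cells and did not overlap in NRK-49F cells. The rise was 1.64-fold in NRK-52E cells (log2 0.71 ± 0.13, edgeR adjusted p = 6.9e-05) and 1.72-fold in NRK-49F cells (log2 0.78 ± 0.14, edgeR adjusted p = 0.00022). The difference between these rises was -0.07, with a 95% interval from -0.45 to 0.32. This pooled value averaged over opposite directions, so it does not show an equal response. Sample group 1 (NRK-52E) had a log2 fold change of 0.26, below the 0.90 of sample group 4 (NRK-49F). Sample group 3 (NRK-52E) had 1.15, above the 0.69 of sample group 6 (NRK-49F). Under 11 other settings the difference ran from -0.64 to 0.46 and passed in none.

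The size of the acid response was compared between the lines for all 10 transporters. The difference passed the test for 5 of them (Slc3a2, Slc7a5, Slc7a1, Slc1a4 and Slc1a5), in each case toward higher values in NRK-52E cells. Of all genes tested, 41.4% passed it in either direction, and 40.5% of those lay toward higher values in NRK-52E cells. With sample groups 1 and 4 alone the difference passed for 1 of the 10, Slc1a5, and with sample groups 3 and 6 alone for 4.

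The size of the rise also differed by sample group in NRK-52E cells. There the difference between sample groups 3 and 1 in the effect of pH 6.0 passed the test for 4 of the 10 transporters (Slc3a2, Slc1a4, Slc6a9 and Slc7a6), against 10.6% of all genes tested. Slc3a2 rose 1.80-fold in sample group 1 and 4.13-fold in sample group 3, a difference of 1.20 ± 0.15 on the log2 scale (edgeR adjusted p = 4.2e-05). The controls of both sample groups were alike for this gene, at means of 201 and 196 FPM, and the acidic samples were not, at 360 and 808 FPM.

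Slc1a4 rose 1.97-fold in sample group 1 and 3.82-fold in sample group 3 (difference 0.96 ± 0.12, edgeR adjusted p = 5.4e-05). Slc6a9 rose 2.22-fold in sample group 3, while its log2 fold change in sample group 1, 0.26 ± 0.14, did not pass the test (difference 0.89 ± 0.19, edgeR adjusted p = 0.0051). Slc7a6 went the other way, with a rise of 1.29-fold in sample group 1 and a log2 fold change of -0.10 ± 0.087 in sample group 3 (difference -0.46 ± 0.12, edgeR adjusted p = 0.019). Slc1a5 rose in both sample groups, 1.89-fold and 2.35-fold, and its difference of 0.31 ± 0.12 did not pass (edgeR adjusted p = 0.10). Slc7a1 was at 0.08 ± 0.17 in sample group 1 and 0.62 ± 0.17 in sample group 3 on the log2 scale, with a difference that did not pass either (edgeR adjusted p = 0.17).

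**Figure D3:**
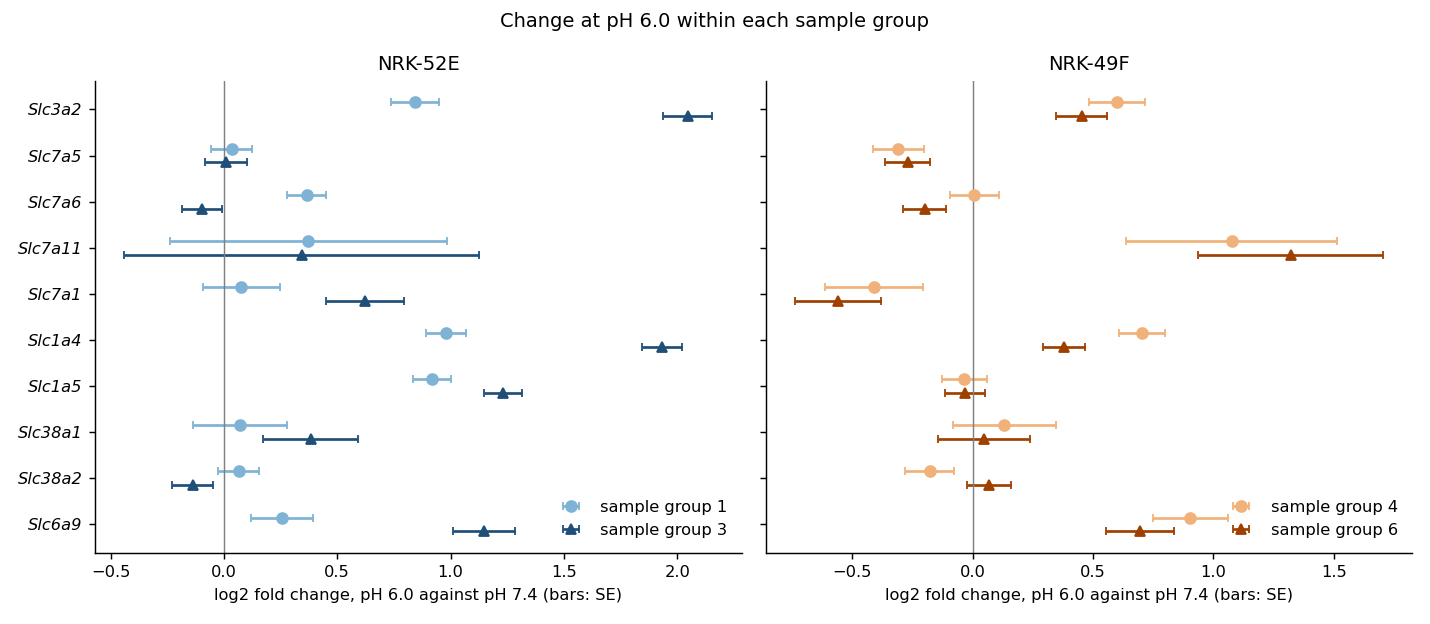
Log2 fold change at pH 6.0 within each sample group, with SE, for NRK-52E cells (left, sample groups 1 and 3) and NRK-49F cells (right, sample groups 4 and 6). In NRK-52E cells Slc3a2 is at 0.84 in sample group 1 and 2.05 in sample group 3, while in NRK-49F cells it is at 0.60 and 0.45.

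In NRK-49F cells 0 of the 10 transporters differed between sample groups 6 and 4 in edgeR, where 1 (Slc1a4, log2 difference -0.33 ± 0.13) had an unadjusted p under 0.05, and DESeq2 called 0 of them. Of all genes, 0 were called by edgeR (0% of those tested), 596 had an unadjusted p under 0.05, and DESeq2 called 10. Sample group 4 held 2 acidic samples, which differed from each other for Slc3a2 (396 and 287 FPM) and Slc6a9 (26.9 and 39.7 FPM). Reference genes of the stress response moved as follows in NRK-52E cells. Ddit3, which encodes CHOP, went from 67.4 ± 3.54 to 135 ± 7.14 FPM in sample group 1 and from 69.9 ± 18.5 to 209 ± 19.6 FPM in sample group 3 (SD, n = 3 each), and the difference of the effects did not pass (edgeR adjusted p = 0.27). Atf4 went from 702 ± 30.8 to 1035 ± 86.6 FPM and from 674 ± 97.2 to 1257 ± 119 FPM (SD, n = 3 each), also without passing (edgeR adjusted p = 0.33). Asns, asparagine synthetase, ended at 99.9 ± 2.86 and 97.0 ± 5.34 FPM, but from controls of 71.7 ± 3.92 and 52.2 ± 5.55 FPM (SD, n = 3 each), and the difference of the effects passed (log2 0.41, edgeR adjusted p = 0.039).

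The partners of 1 complex or family were then set against each other within each sample, as counts of one gene per 1000 counts of the other. Gene length cancels only in the change of such a ratio, so its size is not read. These 7 exact two-sided permutation tests over samples were chosen after the values were seen, and the smallest p they allow is 0.00216. Samples were shuffled across the sample groups of a line, not within them. In NRK-52E cells Slc7a5 counts per 1000 Slc3a2 counts ranged from 217 to 290 at pH 7.4 and from 53.5 to 156 at pH 6.0, and Slc7a6 counts from 242 to 305 and from 59.2 to 215. Neither ratio overlapped between the pH values. On the log2 scale they fell by 1.42 and 1.31 (exact p = 0.00216 each, adjusted 0.00302), to a different degree by sample group: by 0.81 in sample group 1 and 2.04 in sample group 3 for Slc7a5, and by 0.48 and 2.14 for Slc7a6. In NRK-49F cells both ratios fell too, by 0.79 and 0.61 (exact p = 0.00216 each, adjusted 0.00302). Slc3a2 was already seen to rise without overlap in both lines, and Slc7a5 and Slc7a6 were called higher in neither. These falls therefore largely restate the rise of Slc3a2, and a low p was largely fixed in advance.

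Slc7a11 counts per 1000 Slc3a2 counts of NRK-49F cells ranged from 3.63 to 9.71 at pH 7.4, against 6.82 to 17.1 at pH 6.0. These ranges overlapped, and the log2 change of 0.75 did not pass (exact p = 0.0628). Slc1a4 counts per 1000 Slc1a5 counts rose in both lines, by 0.38 on the log2 scale in NRK-52E cells (exact p = 0.00866, adjusted 0.0101) and by 0.52 in NRK-49F cells (exact p = 0.00216, adjusted 0.00302). In NRK-52E cells the change of this ratio was 0.06 in sample group 1 and 0.70 in sample group 3. Slc1a5 was not called in NRK-49F cells, so the rise of the ratio there largely restates that of Slc1a4.

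**Figure D4:**
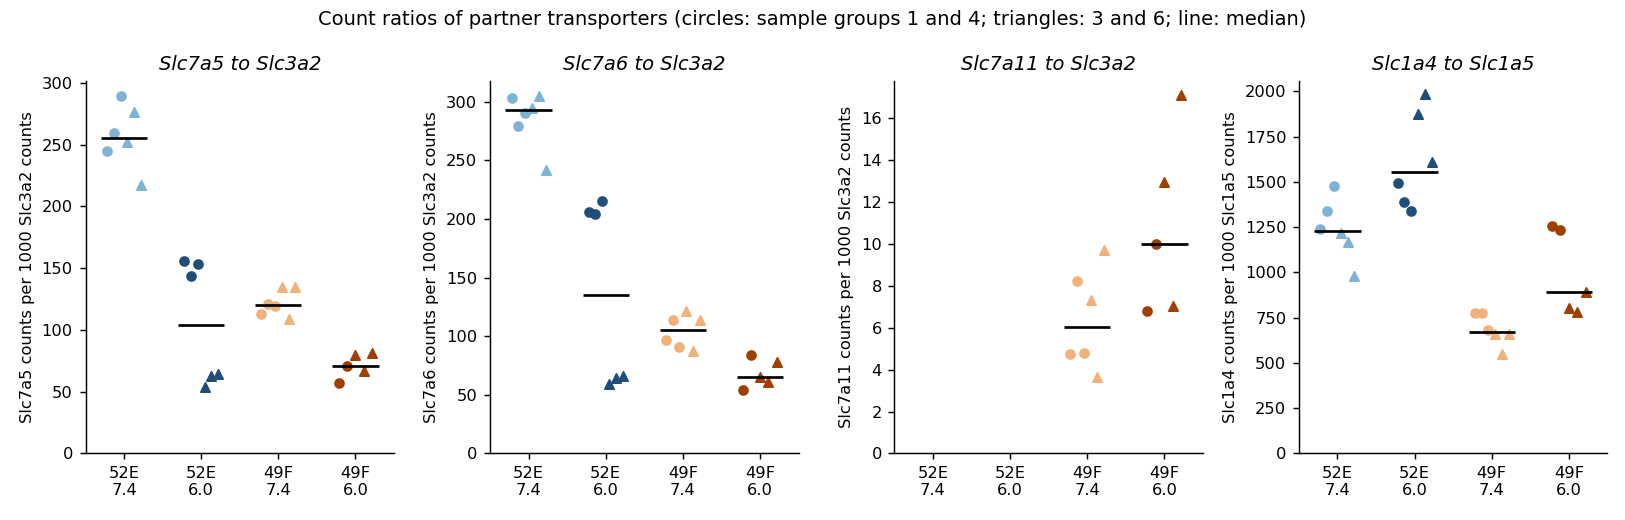
Counts of a transporter per 1000 counts of its partner in each sample (linear axes from 0), by line and pH. Lines are medians, circles sample groups 1 and 4, triangles sample groups 3 and 6, and Slc7a11 is left out for NRK-52E cells because it held at most 8 counts there. In NRK-52E cells the median of Slc7a5 per 1000 Slc3a2 counts was 256 at pH 7.4 and 104 at pH 6.0, and in NRK-49F cells these medians were 120 and 70.5.

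The lines were compared with each other at each pH. At pH 7.4, 7 of the 10 transporters differed, while 68.8% of all genes tested did. NRK-52E cells held more Slc6a9 (3.95-fold), Slc7a1 (3.05-fold), Slc7a6 (2.38-fold) and Slc7a5 (1.82-fold), with edgeR adjusted p between 5.9e-12 and 7.0e-10. NRK-49F cells held more Slc7a11, Slc38a1 (4.18-fold) and Slc1a5 (1.70-fold), with edgeR adjusted p between 3.9e-12 and 1.8e-07. The log2 difference of Slc7a11 was -2.98 ± 0.38 and rested on at most 8 counts per sample in NRK-52E cells. Slc3a2, Slc1a4 and Slc38a2 did not pass at pH 7.4.

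At pH 6.0, 9 of the 10 differed, with Slc38a2 as the exception (edgeR adjusted p = 0.11), which passed with sample groups 3 and 6 alone, while 75.5% of all genes did. Slc3a2 was now 1.78-fold and Slc1a4 2.12-fold higher in NRK-52E cells (edgeR adjusted p = 0.00050 and 1.2e-06). The gap of Slc7a1 was 5.48-fold at pH 6.0 (edgeR adjusted p = 1.8e-13). Slc1a5 was 1.27-fold higher in NRK-52E cells (edgeR adjusted p = 0.0022), and Slc7a11 and Slc38a1 were still lower in them. With raw library sizes in place of scaled ones, the median log2 difference of all genes between the lines was 0.21 in place of 0.02 at pH 7.4 and 0.19 in place of -0.02 at pH 6.0, and 62% in place of 50.8% of the genes called at pH 7.4 were higher in NRK-52E cells. The numbers of transporters higher and lower in NRK-52E cells were 4 and 3 at pH 7.4 and 7 and 2 at pH 6.0 under either choice.

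Other amino acid transporters were looked at as a list of 28 plasma membrane carriers, of which 10 had enough counts to be tested. In NRK-52E cells 1 of these 10 was higher at pH 6.0 and 5 were lower, against 24.7% and 36.6% of all genes, and their median log2 fold change was -0.78, against -0.12. Slc6a20, a sodium-dependent proline carrier, was at or under 3 counts in every control sample and at 1.57 ± 0.356 FPM (SD, n = 6) at pH 6.0, at least 11.4-fold higher than the mean level of 3 counts per sample. Slc7a8, which encodes the LAT2 light chain of the same heavy chain, went from 1.87 to 0.288 FPM, a fall by 2.57 on the log2 scale (edgeR adjusted p = 1.5e-05). Slc7a9, a light chain of cystine and cationic amino acid transport, fell by 2.33 (edgeR adjusted p = 1.4e-07), and its heavy chain Slc3a1 fell by 1.33 (edgeR adjusted p = 8.8e-06). In NRK-49F cells Slc1a3, a glutamate carrier, rose by 0.41 (edgeR adjusted p = 0.034). Slc7a9 was called there too, but it held at most 4 counts per sample at pH 7.4 and 2 at pH 6.0, with means of 0.122 and 0.0219 FPM, so a change was not detectable at this depth. The other 8 did not pass, and the list's median was 0.15.

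Of 8 lysosomal amino acid transporters tested, 2 rose and 4 fell in NRK-52E cells while NRK-49F cells had 0 higher and 1 lower. Of all genes 24.7% rose and 36.6% fell in the former, and the list's median of -0.10 was close to the -0.12 of all genes. In NRK-49F cells the median was -0.18, against 14.5% and 14.4% of all genes called in each direction. In NRK-52E cells Mfsd12, which serves lysosomal cysteine uptake, rose by 0.66 and Slc36a4 by 0.43, while the proton-coupled Slc36a1 fell by 0.83 and Slc66a1, a carrier of cationic amino acids, by 0.35. Slc66a1 also fell by 0.46 in NRK-49F cells.

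**Figure D5:**
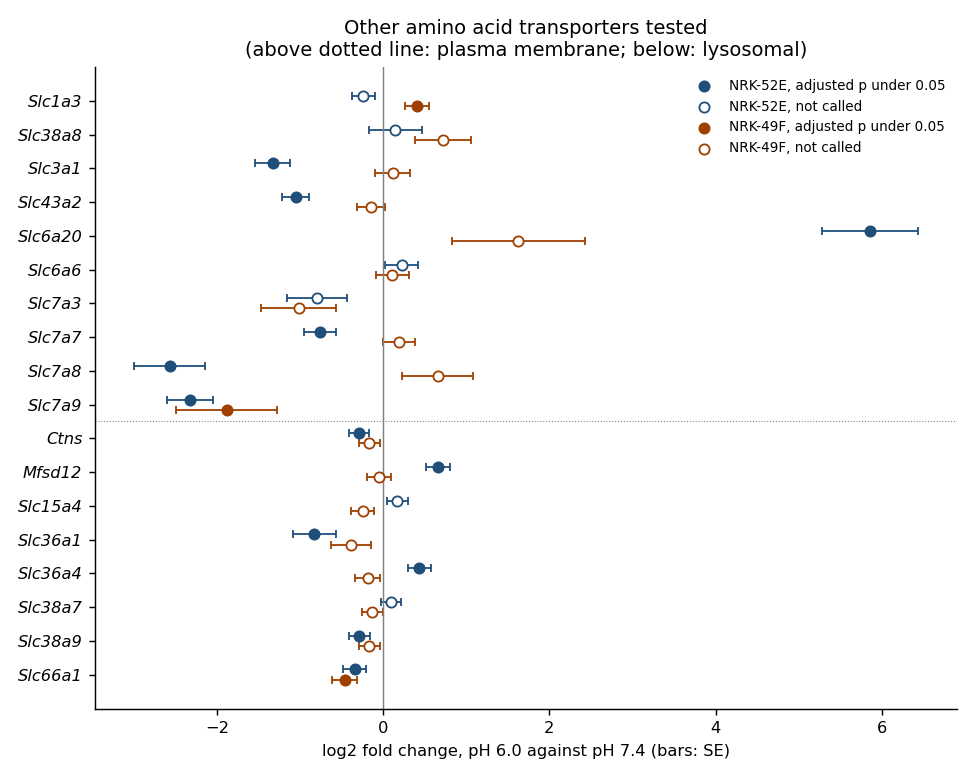
Log2 fold change at pH 6.0 with SE for the other tested plasma membrane carriers (above the dotted line) and lysosomal carriers (below it), in NRK-52E (blue) and NRK-49F cells (brown). Filled points passed the edgeR test at an adjusted p under 0.05. Of the 10 plasma membrane carriers in NRK-52E cells, 5 lie significantly below 0 and Slc6a20 lies at 5.86, a fitted value that depends on the near absence of counts at pH 7.4.

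Of 29 genes tested from the amino acid response and the integrated stress response, 20 rose and 2 fell in NRK-52E cells (median log2 0.65), against 24.7% and 36.6% of all genes. In NRK-49F cells 11 were higher and 2 lower (median 0.16), against 14.5% and 14.4%. In NRK-52E cells Pycr1, an enzyme of proline synthesis, went from 22.6 ± 1.96 to 141 ± 13 FPM (SD, n = 6 each). The stress hormone gene Gdf15 went from 0.0495 ± 0.0731 to 1.40 ± 1.08 FPM in these cells (SD, n = 6 each), with at most 5 counts in a control sample. Psat1, an enzyme of serine synthesis, and Vldlr, a lipoprotein receptor, fell by 0.79 and 0.76 there. In NRK-49F cells the transcription factor gene Atf3 went from 3.47 to 36.4 FPM, while Herpud1 of the endoplasmic reticulum and Aldh18a1 of proline synthesis fell by 0.49 and 0.33. Gdf15 went from 0.0460 ± 0.0514 (SD, n = 6) to 0.679 ± 0.653 FPM (SD, n = 5) there, with at most 4 counts in a control sample. Asns rose in both lines (log2 0.67 and 0.45), and so did Ddit3 (1.33 and 0.82), whereas Atf4 rose in NRK-52E cells (0.74 ± 0.11) and did not pass in NRK-49F cells (0.30 ± 0.12, edgeR adjusted p = 0.059).

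As Slc7a11 supplies cystine for glutathione synthesis, a list of genes of cystine use, glutathione and NFE2L2 targets was looked at. Of 13 tested, 8 rose and 0 fell in NRK-52E cells (median 0.56), where 24.7% and 36.6% of all genes did, and 9 were higher and 1 lower in NRK-49F cells (median 0.80), where 14.5% and 14.4% were. Gclm, the modifier subunit of the first enzyme of glutathione synthesis, rose by 2.14 in NRK-52E cells, and the quinone reductase gene Nqo1 by 1.55. In NRK-49F cells Ggt1, which splits extracellular glutathione, rose by 2.77 and Nqo1 by 2.35, while Cth, which makes cysteine from cystathionine, fell by 0.30. Nfe2l2 itself was not called in either line (0.05 ± 0.061 and -0.06 ± 0.064).

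Among genes of amino acid sensing by mTORC1, 8 of 26 rose and 9 fell in NRK-52E cells (median 0.07), and 4 were higher and 4 lower in NRK-49F cells (median -0.01). These shares are near those of all genes, of which 24.7% rose and 36.6% fell in the former line and 14.5% and 14.4% in the latter, so they are no result about the list. Fnip2, which acts with the Rag GTPases, and Rragd, which encodes a Rag GTPase, rose by 1.19 and 0.91 in NRK-52E cells. Mlst8, a subunit of mTOR complexes, and the sestrin gene Sesn3 fell by 1.33 and 0.87 there. In NRK-49F cells Rptor and Nprl3 rose by 0.63 and 0.46, and the arginine sensor gene Castor1 and its relative Castor2 fell by 0.72 and 0.52. Of 11 enzymes of glutamine, glutamate and branched-chain amino acids, 5 rose and 3 fell in NRK-52E cells, against 24.7% and 36.6% of all genes, and the median of -0.09 was close to the -0.12 of all genes. In NRK-49F cells 2 were higher and 3 lower (median 0.15), against 14.5% and 14.4%. In NRK-52E cells Glul, glutamine synthetase, dropped from 396 ± 20.7 to 121 ± 51 FPM (SD, n = 6 each), a fall by 1.71, and Glud1, glutamate dehydrogenase, fell by 0.57 there. Bckdha and Gls2 rose by 0.79 and 0.49 in the same cells. In NRK-49F cells Gpt2 and Got2, aminotransferases, rose by 0.68 and 0.52, and Glud1 and Bcat2 fell by 0.63 and 0.52.

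For each transporter the gene most like it over the 23 samples was sought among the 10228 genes whose mean reached 5 FPM, by the root mean square difference of log2(FPM + 1) after centring each gene on its own mean. The samples share their line, pH and scaling, so the profiles of most genes hold differences between the same 4 groups. The nearest gene was Adpgk for Slc3a2 (0.17), Cnppd1 for Slc7a5 (0.12), Pptc7 for Slc7a6 (0.16), Amz2 for Slc7a11 (0.23) and Spty2d1 for Slc7a1 (0.18). It was Gramd2b for Slc1a4 (0.16), Ykt6 for Slc1a5 (0.12), Klf6 for Slc38a1 (0.17), Tob2 for Slc38a2 (0.083) and Lin7c for Slc6a9 (0.27). Within the 10 transporters the closest profiles by this measure were those of Slc7a5 and Slc7a6 (0.24) and of Slc3a2 and Slc1a4 (0.25). The farthest by it were those of Slc7a1 and Slc38a1 (1.92). The added 1 FPM shrinks differences at low levels, as for Slc7a11 with means from 0.172 to 3.45 FPM. Its distances and its nearest gene therefore do not reflect its full difference between the lines.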

How the data were processed

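The deposited table holds raw counts, which the authors made from read pairs of poly(A) RNA with HISAT2 2.1.0 and featureCounts on Ensembl exons, multi-mapping reads included, without normalization. The rat build is rn6 in the submitters' processing notes and rn7 in the study's methods, and the strand setting is not given in the sources used here, so reads of overlapping or near-identical genes could not be told apart. Of its columns, 23 were matched to labels and 13 were not used. Genes were kept by filterByExpr (minimum count 10, minimum total 15), scaled by TMM and tested in 1 model of 4 groups by the quasi-likelihood test of edgeR 4.0.16 in R 4.3.3, and a model with sample groups gave their differences. Adjusted p-values are over all 14777 genes tested. The SE of a log2 fold change is its size divided by the square root of F. The alternatives used DESeq2 1.42.0, other scalings, filters, thresholds and samples. The edgeR model of 4 groups was tested on simulated counts with known changes, for the change with pH in each line only. The simulation used 1 constant spread for all genes and no sample group effect, and the other steps were not simulated. The transporters and gene lists were chosen with earlier results of these data known. From each list the genes named are the 2 called members with the largest rise and fall in each line, and Atf4, Ddit3, Asns and Nfe2l2 served as reference points. Slc3a1 was named after its values were seen, as the partner of Slc7a9. Figures were drawn with matplotlib 3.10.9.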

Additional observations from a re-analysis of the deposited data

Results flagged for a closer look

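The effect of pH 6.0 differed between the lines for 5 of the 10 transporters, by a test of the difference itself. Of all genes tested, 41.4% passed this test, and 40.5% of those lay toward higher values in NRK-52E cells. All 5 transporters lay toward higher values in NRK-52E cells: by 1.04 on the log2 scale for Slc3a2, 0.29 for Slc7a5, 0.84 for Slc7a1, 1.00 for Slc1a4 and 1.11 for Slc1a5. With sample groups 1 and 4 alone, Slc3a2 was at 0.25, Slc7a5 at 0.35, Slc7a1 at 0.49 and Slc1a4 at 0.28, none of which passed, and Slc1a5 at 0.96, which did. Within NRK-52E cells the effect differed between sample groups 3 and 1 for 4 of the 10 transporters, against 10.6% of all genes tested. The differences were 1.20 for Slc3a2, 0.96 for Slc1a4, 0.89 for Slc6a9 and -0.46 for Slc7a6. The labels do not say what separates the sample groups, and the cause was not tested.

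Single samples stood apart in 2 of the 40 groups of values looked at, and the limit used is one that chance nominally passes in about 1 in 20. Slc38a2 was at 497 FPM in NRK-52E replicate A035 (pH 7.4), while the other 5 controls lay between 567 and 608 FPM. Slc6a9 was at 39.7 FPM in NRK-49F replicate A043 (pH 6.0), while the other 4 acidic samples lay between 26.9 and 29.8 FPM.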

How the results depend on the processing

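The numbers of transporters called stayed within 1.5 times the reported ones in 84 of 87 recounts under other settings and in all 161 recounts without 1 sample. The exceptions were NRK-49F cells, with 3 transporters called at an adjusted p under 0.01 and 3 with sample groups 3 and 6 alone, in place of 6, and the difference between the lines, with 1 called with sample groups 1 and 4 alone, in place of 5. Fewer samples enter the fits on sample groups alone. The model of all samples by sample group called Slc7a5 in sample groups 4 and 6, and Slc7a11 and Slc7a1 in sample group 6 only. No called fold change of a transporter turned its sign. Single calls were also lost, and that of Slc7a6 in NRK-52E cells was gained with sample groups 1 and 4 alone (log2 0.37, edgeR adjusted p = 0.0068). Those lost by scaling or filter were that of Slc3a2 in NRK-49F cells with upper quartile scaling (adjusted p = 0.050), raw library sizes (0.062) and no filter (0.052), that of Slc7a1 in NRK-52E cells with raw library sizes (0.076), and the difference of Slc7a5 between the lines under the same 3 settings (0.051 to 0.067). With sample groups 1 and 4 alone the calls of Slc7a1 and Slc6a9 in NRK-52E cells (adjusted p = 0.65 and 0.16) and of Slc7a5 and Slc7a1 in NRK-49F cells (0.091 and 0.10) were lost, and with sample groups 3 and 6 alone those of Slc7a5, Slc7a11 and Slc7a1 in NRK-49F cells (0.075, 0.056 and 0.062) and the Slc7a5 difference between the lines (0.13). The cause was not tested. Without 1 sample, 4 to 5 transporters were called for the NRK-52E line, 4 to 6 for the NRK-49F line, 4 to 5 for the difference, 7 to 8 and 9 to 10 between the lines at pH 7.4 and 6.0, and 3 to 5 and 0 for the sample groups. With the sample group as a block, the counts for NRK-52E, NRK-49F and the difference were 5, 6 and 5. No paired analysis was possible because no replicate code is shared between groups. Depth limits Slc7a11 in NRK-52E cells, where the filter of at least 10 counts in every sample removed it.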
